A study of Rattus norvegicus with 8 samples.

Results

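Dense H3K27ac domains that carried peaks in both injured and sham rat sciatic nerve are described here. Peaks of the 2 condition lists were pooled and linked along each chromosome whenever the next peak began at most 12.5 kb after the furthest end so far. Domains with at least 1 peak of each list and 10 or more peaks in all, counting the lines of both lists, were the members. They were therefore chosen by the peak calls themselves, so their number of peaks and the presence of both lists are descriptions and not findings. The rule gave 1133 members out of 16558 domains (6.84%).

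Male Sprague Dawley rats had 1 sciatic nerve cut at postnatal day 25, and the nerve distal to the cut was profiled 72 h later (injury, age P28). The sham group was the opposite leg of operated rats, where only the skin was opened. Each condition had 2 H3K27ac immunoprecipitations with 2 inputs, but the peaks used here came as 1 list per condition, with neither peak heights nor values per replicate. The number of animals behind a sample is not stated in the sources used here. The values below thus have no replicate error, differences between the lists could not be tested over samples, and read depth is unknown. Intervals are 95% Wilson intervals for shares and cover counting error over neighbouring, and so not independent, peaks or domains only.

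H3K27ac is the acetylated form of lysine 27 on histone H3. It marks active promoters and enhancers, and clusters of acetylated enhancers close together in the genome, often called super-enhancers or stretch enhancers, are known to lie near genes that define a cell type. Peripheral nerve holds Schwann cells, the glia that wrap axons, with fibroblasts, vascular cells and immune cells beside them. After a cut, Schwann cells distal to the lesion lose their axons and move from a myelinating to a repair program, while macrophages enter the nerve. The tissue was not sorted, so fewer cells of a type and less acetylation per cell cannot be told apart in the lists.

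The name "enhancer-like" could be checked only in part. No gene annotation or sequence of Rnor_5.0, the build named in the submitters' processing notes, was used here, so promoters could not be separated from distal enhancers, no gene is assigned to a domain and no sequence is printed. The word "shared" held for most members in the sense of more than a token peak: 1045 of 1133 (92.2%, 90.5 to 93.6) had 3 or more peaks of each list. That count rests on the same peak calls as the rule and is a description. Sharing was thin for others. In 31 members 1 list contributed a single peak (9 with 1 injury peak and 22 with 1 sham peak), and in 10 members no base pair was called in both conditions. With these 10 included, 134 members (11.8%, 10.1 to 13.8) had under 10% of their covered sequence called in both.

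The dense shared domains were few but held much of the acetylated sequence. They contained 9752 injury peaks, 30.6% of that list (30.1 to 31.1), and 9944 sham peaks, 35.4% of that list (34.8 to 35.9). By covered sequence they held 37.9% of the injury list (6.39 Mb) and 43.0% of the sham list (5.68 Mb). Of all sequence called in both conditions, which can lie only in shared domains, 51.8% lay inside them. These shares follow in part from the rule, which selects domains with many peaks and with peaks of both lists. Broad peaks were concentrated there too: 1578 of 3287 injury peaks over 1 kb (48.0%, 46.3 to 49.7) and 1202 of 2222 sham peaks over 1 kb (54.1%, 52.0 to 56.2) were in members.

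Almost every dense domain was a shared one. Of 1153 domains with 10 or more peaks, 20 had peaks of a single list, 14 of them injury and 6 sham, and the largest of these had 28 peaks. Among all 16558 domains, by contrast, 5282 had injury peaks only, 3811 sham peaks only and 7465 peaks of both. A domain with many peaks has more chances to include both lists, so this contrast follows partly from the counting.

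In a typical member, 24.2% of the stretch from first to last peak was called in at least 1 condition (quartiles 17.2% and 34.8%). The number of peaks per member ranged from 10 to 117 with a median of 14, made up of a median of 7 injury peaks and 7 sham peaks. Spans ranged from 3.90 to 168.9 kb with a median of 27.5 kb (quartiles 19.4 and 38.7 kb). Within a member, the sequence called in either list had a median of 6.39 kb, and the median gap between neighbouring acetylated sites was typically 751 bp. Since a site called in both conditions counts for 2 lines, 513 members (45.3%, 42.4 to 48.2) had fewer than 10 separate sites once overlapping peaks were merged.

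The threshold of 10 peaks did not fall at a natural break. The 167 members with exactly 10 peaks had a median span of 18.1 kb and a median of 3.89 kb covered by either list. Just outside, the 226 shared domains with 9 peaks had medians of 16.1 kb and 3.49 kb. The median share of covered sequence called in both conditions was 26.3% inside and 28.5% outside.

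With 55 injury and 62 sham peaks, the densest member, that is the one with the most peaks, was a 167.1 kb stretch of chromosome 16 at 21634801 to 21801899 (all positions are Rnor_5.0). Injury peaks covered 20.9 kb of it and sham peaks 28.6 kb. A second member with almost as many peaks followed 108.2 kb downstream, at 21910101 to 22046699, with 49 injury and 63 sham peaks covering 24.1 kb and 32.2 kb. Neither domain contained a peak of either differential list, the lists in which the authors named peaks as different between the conditions. In both domains the sham list covered more sequence, 1.37 and 1.34 times as much as the injury list.

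The domain with the most acetylated sequence lay on chromosome 1 at 56842201 to 56976399. Here 54 injury peaks covered 57.5 kb and 53 sham peaks 65.5 kb of a 134.2 kb stretch, and 55.1 kb was called in both. It held the widest sham peak of any member, of 12299 bp. Further along the same chromosome, at 187807201 to 187951699, 45 injury and 44 sham peaks covered 29.95 kb and 32.1 kb, with 88.2% of the covered sequence called in both. These 2 domains had no differential peak. Input signal was not analysed here, so whether such nearly equal footprints also stand out in input was not tested. On chromosome 17 at 91059201 to 91136199, 39 peaks of each list covered 34.7 kb in injured and 37.7 kb in sham nerve, 81.9% of it shared, and 1 injury peak was differential.

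**Figure D1:**
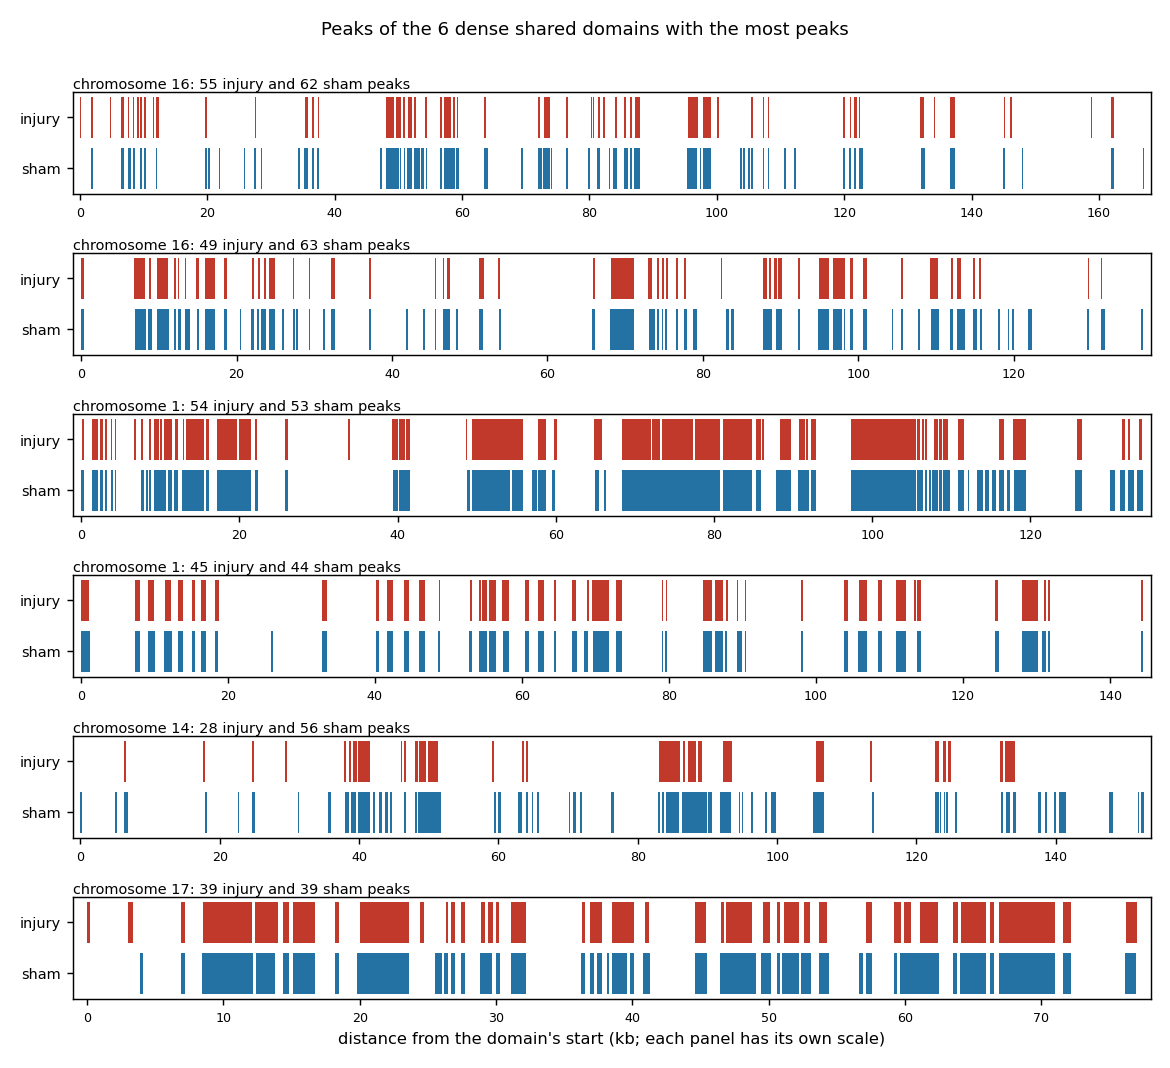
Peaks of the 6 members with the most peaks, drawn as blocks along the domain (x axis, distance from the domain's start in kb; upper row injury, lower row sham). In the first domain 44 of 55 injury blocks have a sham block beneath them, and the fifth, on chromosome 14, has 28 injury and 56 sham blocks.

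Not all of the densest domains were alike in the 2 conditions. On chromosome 14 at 3583101 to 3735699, sham nerve had 56 peaks over 31.7 kb and injured nerve 28 peaks over 19.5 kb, with 6 differential sham peaks. The opposite held on chromosome 12 at 1047601 to 1216499, where injured nerve had 43 peaks over 23.9 kb and sham nerve 31 over 12.5 kb. Only 23.8% of the covered sequence of that domain, the longest member at 168.9 kb, was common to both lists. Its 3 injury differential peaks lay 7.70 to 43.7 kb from its start and its 1 sham differential peak at 162.6 kb, near the other end.

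In the remaining 3 of the 10 densest members the injury list had fewer peaks but covered 1.013 to 1.285 times as much sequence as the sham list. On chromosome 1 at 274490701 to 274605999, 33 injury peaks covered 20.8 kb and 42 sham peaks 18.5 kb. On chromosome 17 at 756601 to 857999 the values were 32 peaks over 28 kb and 42 over 21.8 kb, and on chromosome 7 at 120383701 to 120458899 they were 30 over 23.2 kb and 36 over 22.9 kb. In this order, 33.7%, 33.5% and 48.2% of their covered sequence was called in both lists, and they held 3, 2 and 1 differential peaks. Together the 10 members held 408 injury and 468 sham peaks, of which 5 and 12 were differential. Outside this group of 10, the widest peak of any member, an injury peak of 13499 bp, lay on chromosome 10 at 82565301 to 82578799, in a domain of 20 peaks of each list that had no differential peak.

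The first comparison was whether the single acetylated sites inside a member were the same in both conditions. In members, 5463 of 9752 injury peaks (56.0%, 55.0 to 57.0) overlapped a sham peak by at least 1 bp, and 5675 of 9944 sham peaks (57.1%, 56.1 to 58.0) overlapped an injury peak. Shared domains with 2 to 9 peaks gave 54.7% (53.9 to 55.6) and 59.2% (58.3 to 60.0). The higher pooled injury share of members appeared only with all widths together, since it was lower in members in each of the 4 width classes below, with overlapping intervals. Thus around 4 in 10 of the peaks in members had no counterpart in the other condition, although each domain was called in both. Counterparts were rarer over the whole lists, where 39.7% of injury peaks and 46.5% of sham peaks had one. The whole lists include domains of a single list, where no peak can overlap, so this difference follows in part from the rule. Of the 8.89 Mb covered by either list in members, 3.19 Mb (35.9%) was covered by both, against 31.3% in the smaller shared domains. From member to member this share ran from 0 to 95.8%, with a median of 31.0% and quartiles of 18.1% and 45.1%. Per domain the smaller shared domains had nearly the same median, 30.9%, and a higher mean, 34.1% against 32.7% in members.

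Overlap went with the width of a peak and, for injury peaks of members, with the size of the domain. Of the narrowest injury peaks in members, those of 199 bp, 34.4% overlapped a sham peak, and of those over 1 kb 83.3% did. In the smaller shared domains these shares were 35.2% and 84.7%, and in the classes of 200 to under 500 bp and 500 to 1000 bp they were 52.8% and 71.6% against 51.7% and 69.4% in members. For sham peaks of members the 4 shares, from the narrowest class up, were 34.5%, 55.7%, 75.4% and 90.2%. Sham peaks of the smaller shared domains overlapped more often in the 3 lower classes, at 40.2%, 62.5% and 80.7%, and less often over 1 kb, at 87.9% (85.5 to 89.9, against 88.4 to 91.7 in members). Within members, the overlapping share of injury peaks went from 49.7% in domains of 10 to 14 peaks to 69.1% in those of 30 and over, with 53.0% and 58.3% in the classes between. For sham peaks there was no steady rise, the shares being 55.4%, 57.5%, 54.4% and 61.8%. A site called in both conditions counts for 2 lines and can move a domain up a class, which may add to the rise for injury peaks. The size classes were not split by peak width. A domain of 2 to 4 peaks had shares of 59.5% and 63.9%, but with so few peaks the requirement of both lists already selects for overlap.

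**Figure D2:**
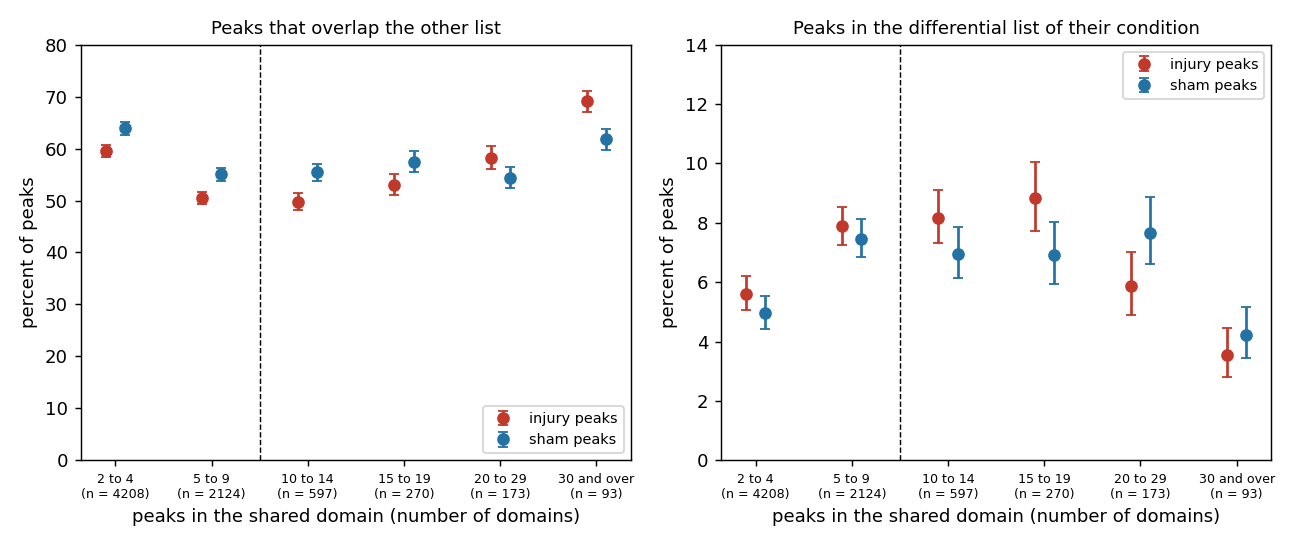
Percent of peaks that overlap the other list (left) and that are in their condition's differential list (right), by number of peaks in the shared domain, with 95% Wilson intervals; domains right of the dashed line are the members. In the 93 members with 30 or more peaks the overlap is 69.1% for injury and 61.8% for sham, and the differential shares are 3.54% and 4.23%.

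The widest called peak of a domain often lay at a different place in each condition. In 486 members (42.9%, 40.0 to 45.8) the widest injury peak overlapped the widest sham peak. Among the smaller shared domains with 2 or more peaks of each list, 1190 of 2281 (52.2%, 50.1 to 54.2) had overlapping widest peaks. Fewer candidates per domain make such a match easier in the smaller ones. A wide site called as several peaks in the other list can also miss a match, so the measure does not show that the sites differ. Per member, the widest injury peak had a median of 1299 bp and the widest sham peak one of 1099 bp.

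Peaks inside members were broader than elsewhere. Injury peaks in members had a median width of 399 bp and a mean of 655 bp, with 16.2% over 1 kb (15.5 to 16.9). In the smaller shared domains the median was also 399 bp, the mean 524 bp and the share over 1 kb 10.1%, and in domains with a single list the mean was 401 bp. For sham peaks the means were 572 bp in members, 447 bp in smaller shared domains and 345 bp in 1-list domains. Inside members, injury peaks that overlapped a sham peak averaged 834 bp against 427 bp for those without one, and for sham peaks these means were 736 and 353 bp. Chromatin was sheared to fragments longer than the narrowest peaks, so a width of 199 bp is the smallest the lists give and not the size of a site.

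The second comparison was the balance of the 2 conditions within a member, measured as the base pairs covered by injury peaks over those covered by sham peaks. Summed over members the ratio was 1.12, and in number of peaks it was 0.981. Over the whole lists these ratios were 1.28 and 1.13, so the excess of the injury list was smaller within the dense shared domains than overall. The whole lists include 5282 injury-only and 3811 sham-only domains, which the rule leaves out, so this difference follows in part from the rule. The median log2 ratio over members was 0.15 (95% interval of the median 0.08 to 0.24; quartiles −0.54 and 0.94). It was 0.21 in the smaller shared domains (0.17 to 0.26). More injury than sham peaks were found in 508 members, more sham peaks in 521 and equal numbers in 104.

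Most members were within 2-fold of equal coverage. This was so for 699 of 1133 (61.7%, 58.8 to 64.5), while 268 (23.7%, 21.3 to 26.2) had at least 2-fold more sequence called in injured nerve and 166 (14.7%, 12.7 to 16.8) in sham nerve. Over all 7465 shared domains, 28.3% were injury-leaning and 16.2% sham-leaning by the same measure, so the members' share was below that background toward injury, while toward sham the background lay within the members' interval. The lean was at least 8-fold in 44 members toward injury and in 18 toward sham. Among the 6332 smaller shared domains the counts were 191 and 74, slightly lower shares than in members. Within members, spread narrowed only from 20 peaks up. The SD of the log2 ratio was 1.49 in members of 10 to 14 and of 15 to 19 peaks. It was 1.18 in those of 20 to 29 and 0.84 in those of 30 and over. The median log2 ratio went from 0.26 to −0.10 between the first and last of these classes. Members as a whole were not less spread than the smaller shared domains, with SDs of 1.41 and 1.34.

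**Figure D3:**
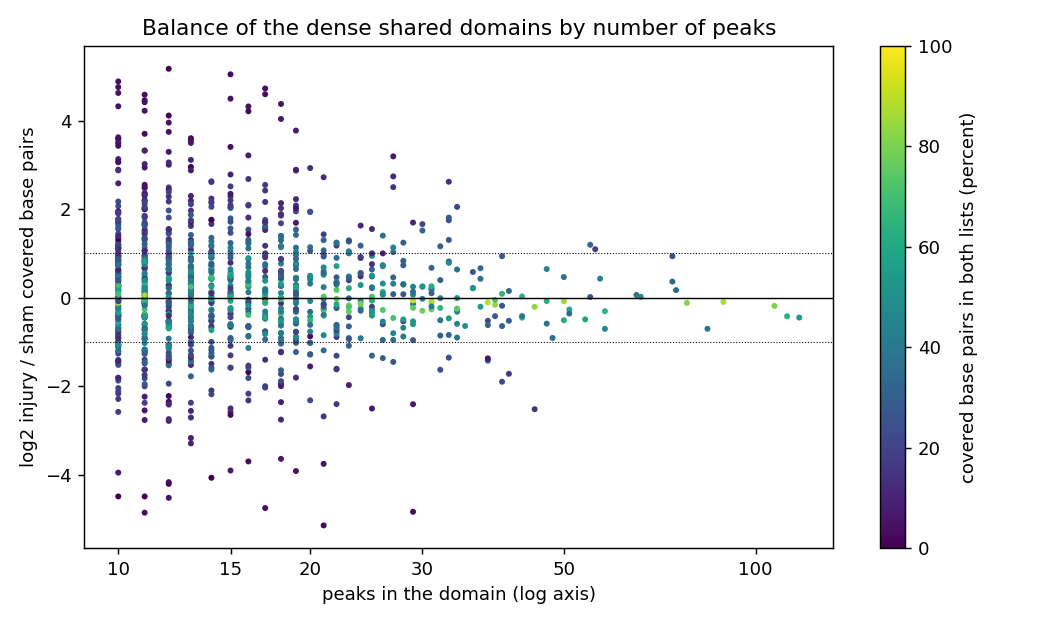
Log2 ratio of injury to sham covered base pairs (y axis) against the number of peaks (x axis, log scale) for the 1133 members, coloured by the percent of covered base pairs in both lists; dotted lines mark 2-fold. Ratios range from −5.15, in a member of 21 peaks, to 5.17, in one of 12 peaks, and draw together in members of 30 and more peaks.

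The members that leaned furthest to injury carried a single sham peak each. At the top was chromosome 19 at 63212301 to 63241699, where 11 injury peaks covered 7.19 kb and 1 sham peak of 199 bp overlapped none of them, a ratio of 36.1. Next came chromosome 5 at 136961301 to 136996499, with 14 injury peaks over 6.59 kb facing 1 sham peak of 199 bp (33.1-fold), 5 of the injury peaks being differential. On chromosome 8, 9 injury peaks at 117075501 to 117092999 covered 5.89 kb, 6 of them differential (29.6-fold), and 9 at 33662701 to 33681999 covered 5.39 kb, 2 of them differential (27.1-fold). The fifth, on chromosome 17 at 17910101 to 17963599, had 16 injury peaks over 10.6 kb and 1 sham peak of 399 bp.

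Leaning furthest to sham was a domain on chromosome 19 at 54362501 to 54393599. Its 20 sham peaks covered 14.2 kb, and its only injury peak covered 0.399 kb, 35.5-fold less. Chromosome 10 had 2 such domains: at 64914101 to 64941599, 10 sham peaks covered 5.79 kb and 1 injury peak 0.199 kb, and at 49186001 to 49234699, 26 sham peaks covered 22.9 kb and 3 injury peaks 0.797 kb. On chromosome 1 at 146786201 to 146825199, 15 sham peaks over 13.5 kb faced 2 injury peaks over 0.498 kb. The domain on chromosome 17 at 18389601 to 18422799, with 11 sham peaks over 4.59 kb and 1 injury peak, began 426 kb beyond the injury-leaning domain of that chromosome. These 10 domains are members by 1 to 3 peaks of the weaker list, so a large ratio in them rests on very little sequence in that list.

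The third comparison used the authors' deposited differential lists, which rest on the same contrast as the rule and are given as a description. In members, 679 of 9752 injury peaks (6.96%, 6.47 to 7.48) and 646 of 9944 sham peaks (6.50%, 6.03 to 6.998) were differential. Over the whole lists the shares were 13.5% and 11.7%. The smaller shared domains, which also had to hold peaks of both lists, had shares near those of the members, 6.82% (6.40 to 7.26) and 6.29% (5.88 to 6.73). When only peaks with no counterpart in the other condition were counted, 15% of those in members were differential on the injury side and 15% on the sham side, and in the smaller shared domains 14.5% and 15.3% were. All 4 shares in members lay within the intervals of the smaller shared domains. Over the whole lists, with domains of a single list included, 22.0% of injury and 21.8% of sham peaks without a counterpart were differential. In members of 30 and more peaks the shares over all peaks were lower, at 3.54% (2.81 to 4.47) and 4.23% (3.46 to 5.15).

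Counted by domain, differential peaks were common: 641 members (56.6%, 53.7 to 59.4) had at least 1, against 25.7% of all shared domains, which have fewer peaks each. Of these, 292 had injury differential peaks only, 266 had sham differential peaks only and 83 had both. In 313 members there was exactly 1 differential peak, while 167 had 3 or more and 45 had 5 or more. Of the 167, 125 had a single direction. The remaining 492 members (43.4%, 40.6 to 46.3) had none, and 115 of those without any were still at least 2-fold apart in covered sequence.

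Members that leaned to a condition mostly had differential peaks of that condition. Of the 268 injury-leaning members, 188 (70.1%, 64.4 to 75.3) had an injury differential peak and 28 (10.4%) a sham differential peak. Of the 166 sham-leaning members, 117 (70.5%, 63.1 to 76.9) had a sham differential peak and 12 (7.23%) an injury one. Since a differential peak adds to the coverage of its own list, these measures are not independent. Members within 2-fold also had differential peaks, injury ones in 175 of 699 (25.04%) and sham ones in 204 (29.2%), and 57 of the 83 members with both directions were among them.

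**Figure D4:**
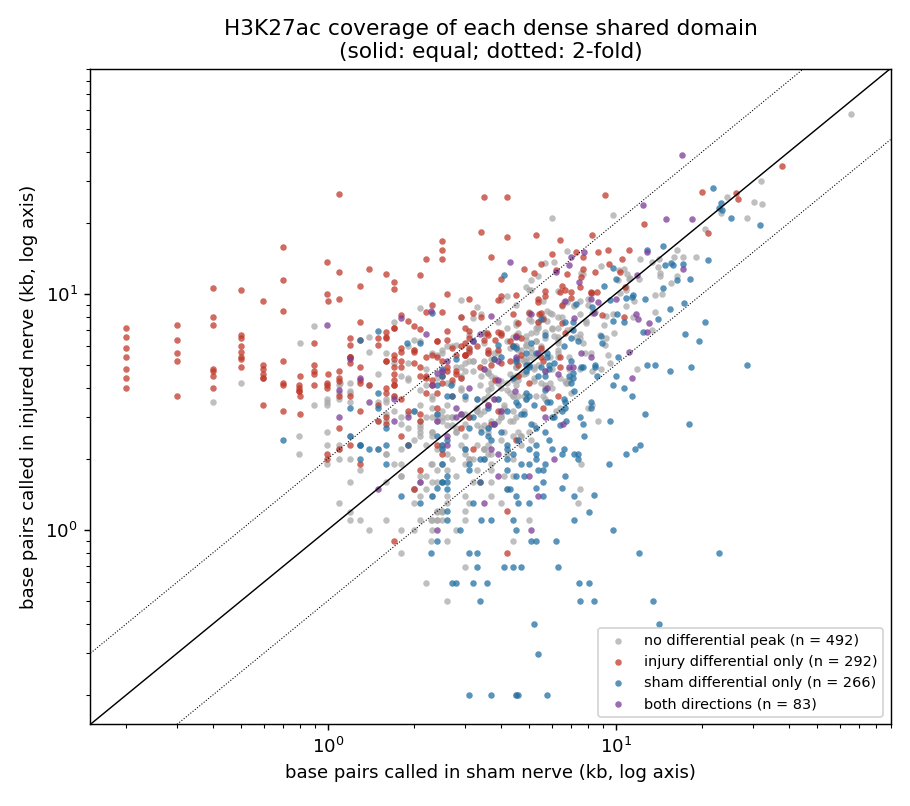
Base pairs called in injured (y axis) against sham nerve (x axis) for the 1133 members, in kb on log axes, coloured by the direction of their differential peaks. The 492 members without one lie mostly between the dotted 2-fold lines, injury-only members reach up and left, and the 83 with both directions lie mostly along the diagonal.

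The domain with the most differential peaks was the sham-leaning one on chromosome 10 at 49186001 to 49234699, where 12 of 26 sham peaks were differential and together covered 9.09 kb. In the chromosome 19 domain named above, 11 of 20 sham peaks were. On the injury side, chromosome 6 at 155995701 to 156033699 had 11 differential peaks among 23 injury peaks, whose total of 12.8 kb faced 4 sham peaks over 1.40 kb. Its sham peaks all lay 8.60 to 15.1 kb from the start, whereas the differential injury peaks were spread from end to end. On chromosome 14 at 86072101 to 86123799, 10 of 24 sham peaks were differential, and the 5 injury peaks lay in the last part of the domain, beyond 37.3 kb.

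Differential peaks of both directions could lie in separate stretches of a domain. The member with the most of the rarer direction lay on chromosome 9 at 42847301 to 42895899 and had 13 injury peaks over 12.4 kb and 12 sham peaks over 6.19 kb. All 4 sham differential peaks lay 1.5 to 5.90 kb from its start, the widest at 42849601 to 42850299. All 6 injury differential peaks lay 14.4 to 48.6 kb from its start, among them peaks of 1999 bp at 42885701 to 42887699 and of 1899 bp at 42870701 to 42872599. Peaks called in both conditions stood between the blocks and once more near the far end, and no injury peak began before 9.90 kb.

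The directions were also separate on chromosome 8 at 123745801 to 123831199, where the 2 injury differential peaks lay 17.7 to 20.2 kb from the start. Of the 4 sham differential peaks, 1 lay at 34.2 kb and the others at 81.8 to 85.4 kb, at the far end. The directions alternated on chromosome 1 at 184249701 to 184309599, where 1 sham differential peak lay at 3.60 kb, 2 injury ones at 13.3 and 40.5 kb, and 2 more sham ones at 58.9 and 59.7 kb, so that sham flanked injury. Of the 83 members with both directions, 41 had 1 differential peak of each. Among the other 42, the directions changed once along the domain in 31 and more than once in 11. Most of the 42 had only 1 differential peak of the rarer direction, which allows no more than 2 changes. These counts therefore cannot show whether the directions tend to lie apart. The nearest peaks of opposite direction were a median of 11.1 kb apart, from 1.00 kb to 118.9 kb.

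**Figure D5:**
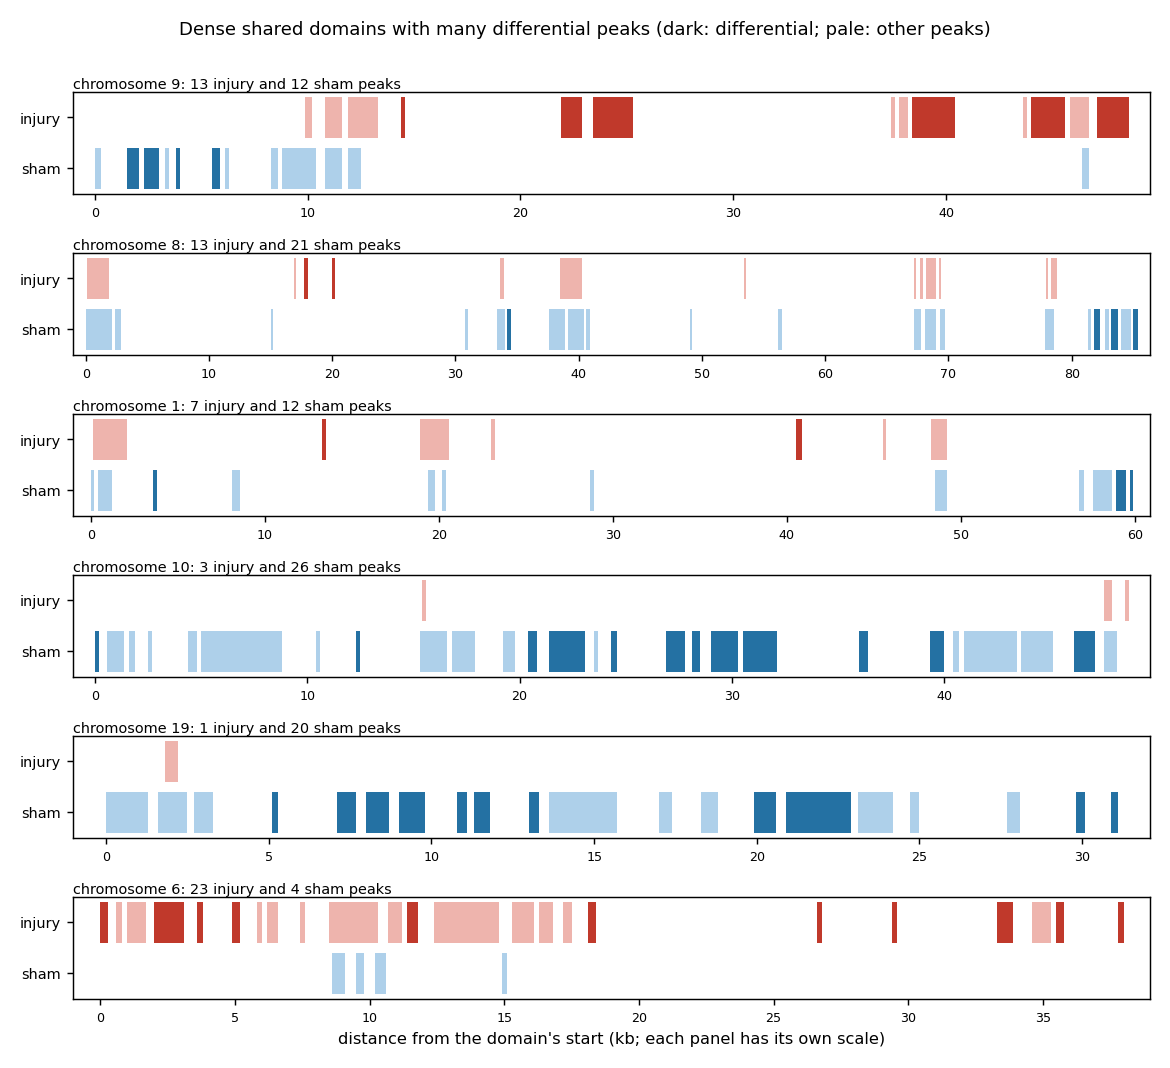
Peaks along 6 members with many differential peaks (x axis, distance from the domain's start in kb; upper row injury, lower row sham; dark blocks differential, pale blocks other peaks). On chromosome 9 the dark sham blocks end at 5.90 kb and the dark injury blocks begin at 14.4 kb, while on chromosomes 10, 19 and 6 the dark blocks belong to 1 condition.

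Differential peaks were not confined to the rims of members. Of the injury differential peaks, 19% (16.2 to 22.1) belonged to the first or last site of their domain, against 16.8% (16.0 to 17.5) of all injury peaks in members. For sham the shares were 20.3% (17.4 to 23.6) and 16.6% (15.9 to 17.4). The mean width of differential peaks in members was 556 bp for injury and 412 bp for sham, above the 427 and 353 bp of all peaks without a counterpart, with a median of 299 bp in each of these groups. Of the 679 injury differential peaks, 36 overlapped a sham peak, and of the 646 sham ones 5 overlapped an injury peak.

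Members lay on all 21 chromosomes in the lists, from 160 on chromosome 1 to 9 on chromosome X. The share of a chromosome's peaks that lay in members ranged from 18.3% on chromosome 11 (16.4 to 20.3) and 19.1% on chromosome 4 (17.8 to 20.5) to 39.8% on chromosome 1 (38.7 to 40.9) and 40.5% on chromosome 10 (39.0 to 42.0). Of 44 members on chromosome 4, 12 leaned to injury and 2 to sham, and of 34 on chromosome 16, 4 and 8 did. Over all members the shares were 23.7% and 14.7%. Whether the counts of a chromosome differ from these shares was not tested. The median log2 ratio of a chromosome's members ranged from −0.35 on chromosome 16 to 0.70 on chromosome 12, where 34 members were counted on each.

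Neighbouring members could lean the same way. Another member lay within 100 kb of 396 members (34.95%, 32.2 to 37.8), and the median distance to the nearest one was 210.2 kb. Of 224 pairs of neighbours within 100 kb, both were within 2-fold in 98 and 1 of them was in 89. Both leaned to injury in 21 pairs, both leaned to sham in 10 and they leaned in opposite directions in 6. Domains split by a gap just over the link distance are counted as neighbours here, so such pairs may be parts of a larger region.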

How the data were processed

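H3K27ac ChIP-seq was done on 2 injured and 2 sham samples of rat sciatic nerve, each with an input. The authors deposited peak positions in base pairs, 31894 injury and 28114 sham peaks, plus 4312 injury and 3290 sham differential peaks. Tools named in the submitters' processing notes, without roles, are HOMER, Bowtie and CASAVA 1.8.2, with the build Rnor_5.0. The sources used here do not say how peaks were called, at which thresholds or whether replicates were pooled, and differing thresholds would change every share.

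Positions in exponent notation were read as whole numbers and blank lines dropped. Starts are printed 1-based, and widths are deposited end minus start. Python 3.11.15, pandas 2.3.3 and scipy 1.17.1 were used. Linking and counting were tested on simulated data. A differential peak is a peak with the same borders in the differential list. Of the injury differential peaks, 2 matched no injury peak, and neither lay in a member.

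Named members were the 10 with the most peaks, the 5 highest and 5 lowest in log2 ratio, the 5 with the most differential peaks, the 5 with the most of the rarer direction, the 3 with the highest common share and the 1 with the widest peak. Members, lists and rules were chosen with earlier results of these data known. No test was run, because no value per replicate was at hand.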

Additional observations from a re-analysis of the deposited data

How the results depend on the processing

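No paired analysis was possible because each condition came as 1 list without replicate values, and leaving out a replicate was not possible either. Depth is unknown, so a missing peak is no measured absence. The number of members (1133) depended on the rule. It was 675 with links of 5 kb, 536 with 15 or more peaks, 620 with 10 or more merged sites and 335 with peaks wider than the median only; links of 25 kb gave 1452 and 8 or more peaks gave 1679. Members with a differential peak (641) were 284, 334, 410 and 112 in the first 4 settings and 986 with links of 25 kb. The members' shares of all injury and sham peaks were 15.8% and 19.5% (5 kb), 46.6% and 50.7% (25 kb), 37.9% and 43.4% (8 or more peaks), 19.3% and 23.5% (15 or more), 20.9% and 24.98% (merged sites), and 16.3% and 20.9% (wide peaks).

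Overlap with the other list was, for injury and sham, 64.5% and 61.7% (5 kb), 50.0% and 54.1% (25 kb), 55.0% and 53.9% (merged sites) and 64.1% and 68.6% (wide peaks). For injury it was 54.9% with 8 or more and 59.7% with 15 or more peaks. A reciprocal overlap of 50% gave 25.6% and 25.1%, and peaks extended by 500 bp on each side gave 72.4% and 74.5%. The median log2 ratio was 0 (5 kb), 0.27 (25 kb), 0.071 (15 or more peaks) and 0.078 (merged sites). Its 95% interval included 0 with 5 kb (−0.086 to 0.096), 15 or more peaks (−0.026 to 0.17) and merged sites (−0.026 to 0.18). The small lean to injury thus depended on the rule. Median widths were 799 and 699 bp with wide peaks only, which follows from that restriction. The other 17 values stayed within their interval or within 1.5 times the main count.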

Other observations

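A small set of members had nearly the same footprint in both conditions, and several of them lay close together. It was singled out after its values were seen. In 20 members (1.77%, 1.15 to 2.71) at least 80% of the covered sequence was called in both lists, against a median of 31.0% over all members. Of these, 13 had another such member within 1000 kb, and 9 lay on chromosome 1. Between 187444601 and 188985699 on chromosome 1, a stretch of 1.54 Mb, 6 of the 7 members belonged to the set and the lowest share of the 7 was 71.8%. Those 6 had 253 peaks, of which 2 were differential. Within the stretch lay the member with the highest common share, at 187677301 to 187715999, with 9 injury peaks over 7.09 kb and 8 sham peaks over 6.99 kb, 95.8% of it in both lists. Its neighbour at 187742201 to 187780399 followed after 26.2 kb, with 13 injury and 12 sham peaks and a share of 93.4%.

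On chromosome 13, 3 members of the set with 81 peaks in all lay within 0.296 Mb, and on chromosome 3 a pair lay 19.9 kb apart, the first at 140438601 to 140453599 with 6 peaks of each list and a share of 94.2%. The 20 members had log2 ratios of injury to sham coverage between −0.26 and 0.17 and held 4 differential peaks. Both values, like the few differential peaks of the chromosome 1 stretch, follow largely from how the set was chosen. A high common share requires similar coverage, and differential peaks in members rarely overlapped the other list. In 17 of the 20 members the sham list covered more sequence than the injury list. Summed over all members, the injury list covered 1.12 times as much as the sham list. Over the whole lists, with domains of a single list included, it covered 1.28 times as much. The set includes 3 of the 10 members with the most peaks. Input signal was not analysed here, so whether these stretches also stand out in input, which would change what their common peaks mean, was not tested.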
